A study of Schizosaccharomyces pombe with 80 samples.

Results

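The 12 epe1 ago1 tfs1DN isolates of fission yeast, *Schizosaccharomyces pombe*, lacked Argonaute, and their H3K9me2 peak lists were compared with those of 15 epe1 vector isolates. These 27 of the 80 samples of the series were taken by the strain and isolate given in their labels. Every isolate of both groups carried a deletion of epe1, was grown at 30 C and was immunoprecipitated with an antibody against dimethylated lysine 9 of histone H3 (H3K9me2). The epe1 ago1 tfs1DN isolates in addition carried a deletion of ago1 and expressed tfs1DN, a version of TFIIS, which helps stalled RNA polymerase II resume elongation, that has mutated acidic residues and acts as a dominant negative. By the study's account tfs1DN stood at leu1 under the thiamine-repressible nmt1 promoter and was kept low by thiamine, so that expression was leaky. The vector isolates carried the empty pDUAL-nmt1 vector. The ago1 isolates came in 3 sets of 3, 5 and 4 isolates, each from 1 parent clone, and all 15 vector isolates shared 1 parent. No vector isolates in the ago1 background were among the samples, so loss of ago1 and tfs1DN cannot be told apart. The p-values measure the spread between isolates, which descend from these few clones. No pair of the 27 lists was identical.

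In fission yeast, H3K9 methylation is laid down by a single methyltransferase, Clr4, and marks the pericentromeric repeats, the mating-type region and the chromosome ends. At the dg and dh repeats of the centromeres, Argonaute bound to small interfering RNAs targets nascent transcripts and brings Clr4 with it, while other routes that do not need RNAi also act there, at the mating-type region and at the ends. Epe1, a JmjC-domain protein, opposes the spread of heterochromatin past its borders. tRNA genes at the centromeres and inverted repeats with B boxes, which bind the RNA polymerase III factor TFIIIC, mark borders. Small heterochromatin islands form over meiotic genes whose transcripts carry repeats of a UNAAAC hexamer bound by the RNA elimination factor Mmi1.

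The sequences on which the comparison turned lie at the borders of the mating-type region and inside these islands. Both edges of the block on the mat3 side of the mating-type region held the same 61 bases, on chrII:2129456-2129516 (plus strand) and on chrII:2136813-2136873 (minus strand) of ASM294v3, with the B box match in capitals.
mating-type border, both copies: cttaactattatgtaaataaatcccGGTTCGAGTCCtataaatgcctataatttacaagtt
The motif searched, on both strands, was the run in capitals with its positions 8 and 9 free to be any base, which had 120 matches on the 3 chromosomes and fell in 108 of 12570 windows of 1 kb (0.859%). For each of 4 meiotic genes in an island, the 150 bases of coding sequence with the most DNA copies of the hexamer (TNAAAC, coding strand, in capitals) are shown next, since all 4 genes were under peaks in every vector isolate and 3 of them in every ago1 isolate. They lie on chrII:1473862-1474011 (plus strand), chrI:578887-579036 (plus), chrII:899528-899677 (plus) and chrI:4535156-4535305 (minus).
mei4: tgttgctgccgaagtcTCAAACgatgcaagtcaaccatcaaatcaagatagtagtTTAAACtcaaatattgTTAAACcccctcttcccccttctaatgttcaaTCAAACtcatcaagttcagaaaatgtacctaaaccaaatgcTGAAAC
mcp7: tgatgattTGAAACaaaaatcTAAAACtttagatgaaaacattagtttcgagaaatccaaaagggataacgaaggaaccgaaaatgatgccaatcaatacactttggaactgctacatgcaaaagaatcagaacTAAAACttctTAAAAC
num1: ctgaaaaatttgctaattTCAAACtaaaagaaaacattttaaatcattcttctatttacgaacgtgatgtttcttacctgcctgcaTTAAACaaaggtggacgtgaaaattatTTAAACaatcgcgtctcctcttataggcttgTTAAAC
ssm4: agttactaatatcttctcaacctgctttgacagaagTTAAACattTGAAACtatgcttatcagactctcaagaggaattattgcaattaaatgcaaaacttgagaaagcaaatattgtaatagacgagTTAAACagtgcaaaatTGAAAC
The window of mei4 held 5 hexamers, a number reached within 150 bases in 0.0592% of 5066 genes. The windows of mcp7, num1 and ssm4 held 4, a number reached in 0.671% of genes. Over their whole coding sequence the 4 genes held 6.19 to 7.90 hexamers per kb, against a median of 1.52 over all genes.

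The lists differed in what a listed peak means, which bears on every count below. A peak was listed only where its coverage was at least about 3 times the coverage of its chromosome, since the lowest fold in the 27 lists lay between 3.01 and 3.04. Chromosome coverage ran from 12.7 to 36.6, in the deposited unit, in the ago1 isolates and from 1.70 to 8.67 in the vector isolates. In all 15 vector lists the peaks held more coverage (112 to 230%) than the chromosome value times the chromosome length, so that value was no plain mean there, and in the ago1 lists they held 21.1 to 40.2%. Set against the centromeres of the same isolate, the 3-fold limit stood at 15.8 to 61.0% of centromeric coverage in the ago1 isolates (median 31.8%) and at 3.10 to 7.41% in the vector isolates (median 3.91%). A site at 10% of the centromeric coverage could therefore be listed in every vector isolate and in no ago1 isolate. The limit was lowest in set 1 (15.8 to 22.7%), higher in set 2 (30.6 to 34.8%) and highest in set 3 (44.0 to 61.0%). The main results are given as listed, with those that changed when peaks under a common share of centromeric coverage were left out. Peaks were kept or left out whole by their mean coverage. Their edges were not redrawn, so the limits were not made fully equal.

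The ago1 isolates had H3K9me2 peaks at each class of constitutive heterochromatin, with fewer peaks and less length on average than the vector isolates. They held 29 to 58 peaks per list (median 35.5), against 43 to 83 (median 63), and 274 to 340 kb in all, against 287 to 407 kb. Of the 2515 bins of 5 kb along the 3 chromosomes, 177 had a peak in at least 1 of the 27 isolates and 65 had one in all 27. The share of isolates with a peak was lower in the ago1 isolates in 33 bins (18.6% of those tested) and higher in 2 bins (1.13%), by Fisher's exact test at a Benjamini-Hochberg adjusted threshold of 0.05. By place, the share was lower in 1 of 27 centromeric bins, 2 of 5 at the mating-type region, 13 of 57 at the ends of chromosomes I and II, 5 of 14 at the ends of chromosome III, 5 of 15 in the 10 kb flanks of these regions (all 5 beside a centromere), and 7 of 59 elsewhere, here called euchromatic. The 2 higher bins lay in the right flank of the mating-type region and near the right end of chromosome I. When only peaks with at least 10% of the isolate's own centromeric coverage were counted, a limit that all ago1 peaks passed, 4 bins were lower and 10 higher of 141 tested.

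**Figure D1:**
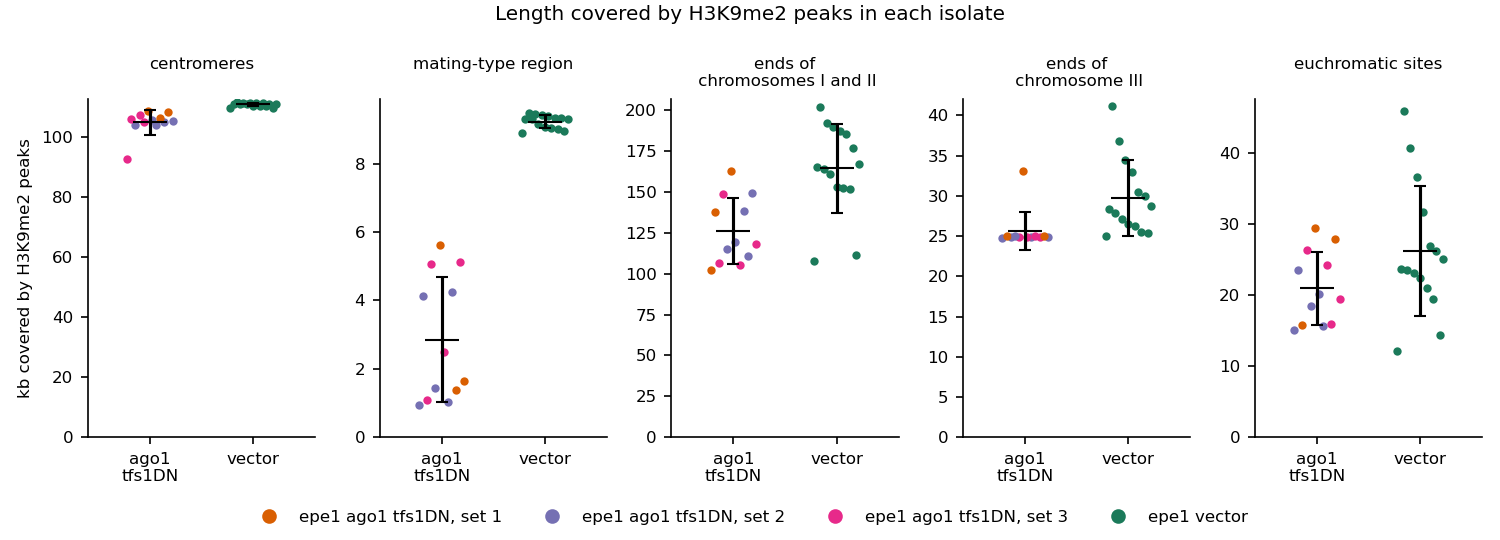
Length covered by H3K9me2 peaks (kb, each axis from 0) in each of the 12 epe1 ago1 tfs1DN isolates, coloured by set, and the 15 epe1 vector isolates, with 1 panel per place; each point is 1 isolate, and bars show the mean and SD. The groups do not overlap at the centromeres (92.8 to 108.5 against 109.5 to 111.7 kb) and the mating-type region (0.949 to 5.61 against 8.88 to 9.47 kb), and they overlap at the chromosome ends and the euchromatic sites.

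At the centromeres, where RNAi acts on the dg and dh repeats, the peaks of the ago1 isolates covered 94.6% of the mean length found in the vector isolates. Coverage ran from 92.8 to 108.5 kb in the ago1 isolates (median 105.5) and from 109.5 to 111.7 kb in the vector isolates (median 111.0), with no overlap. The mean was 104.9 ± 4.08 kb (SD, n = 12) against 110.8 ± 0.62 kb (n = 15; permutation test, adjusted p = 2.8e-05). The unadjusted p here and at the mating-type region was 1e-05, the smallest that 100000 resamples can give. Each centromere contributed, with means of 23.5 against 25.2 kb at centromere 1, 29.7 against 30.7 kb at centromere 2 and 51.6 against 55.0 kb at centromere 3. The parents of sets 1, 2 and 3 held 108.2, 84.9 and 2.56 kb. By the study's account, 2 of 3 epe1 ago1 isolates examined before tfs1DN was added had ectopic heterochromatin at clr4. These 2 also had less H3K9me at constitutive heterochromatin. The study reports that once tfs1DN was integrated into them, heterochromatin formed at such loci, the centromeres among them, and was lost at clr4. Of 114 windows of 1 kb that held a peak in all 15 vector isolates, 106 held one in all 12 ago1 isolates as well. The other 8 were 1 window at centromere 1 that no ago1 isolate had, 1 at centromere 2 that 10 of 12 had, and 6 at centromere 3 that 6 to 11 of 12 had. The centromeric peaks, merged where less than 1 kb apart, averaged 17.9 ± 2.74 kb in length per ago1 isolate and 22.1 ± 0.78 kb per vector isolate (permutation test, adjusted p = 2.17e-05). Isolate 5 of set 3 had the lowest coverage, 92.8 kb, and the difference was -5.95 kb with set 3 and -4.91 kb without it. The inputs had centromeric peaks too (1.14 to 4.90 kb in the ago1 inputs and 9.92 kb in the vector input). When every peak that overlapped an input peak was left out whole, the difference turned to 39.2 kb. Each list was set against the input of its own set or group. The inputs of sets 2 and 3 held 0 kb at centromeres 1 and 2, so that whole blocks there were kept in these sets. The groups were thus not filtered alike, and nothing is read from the changed sign.

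Part of the difference lay at the inner edges of the repeats. The core of each centromere, over which no isolate had a peak, spanned 11.4, 10.3 and 13.4 kb at centromeres 1, 2 and 3. All 6 inner edges, which face this core, lay farther from it in the ago1 isolates without overlap between the groups, by 0.64 and 0.72 kb at centromere 1, 0.21 and 0.42 kb at centromere 2, and 0.52 and 1.10 kb at centromere 3 (permutation test, adjusted p = 1.2e-05 for each). The 6 outer edges lay closer to the core in the ago1 isolates, by 0.32 to 6.75 kb on average, and 2 of the 6 were without overlap. In the vector isolates the median inner edges of centromere 1 lay within 66 and 45 bases of the glutamate tRNA genes SPATRNAGLU.03 and SPATRNAGLU.04. In the ago1 isolates they lay 301 and 326 bases from the alanine tRNA genes SPATRNAALA.04 and SPATRNAALA.05, on the side of the repeats. The bin next to the core of centromere 1, chrI:3765001-3770000, held a peak in 0 of 12 ago1 and 15 of 15 vector isolates (Fisher's exact test, adjusted p = 3.39e-06), and the vector peaks reached less than 0.5 kb into it. Coverage was smoothed by the authors over 1 kb, so that shifts of this size are shorter than the smoothing window, and a lower peak over a fixed limit is also narrower. Isolate 5 also had breaks inside the repeats of centromere 3, where its merged peaks averaged 7.58 kb, against 25.5 to 29.5 kb in the other ago1 isolates and 29.8 to 31.0 kb in the vector isolates, and it alone lacked 3 of the 6 windows there. How much of the shift came from the unequal limit was not tested beyond the common limits below, which do not redraw edges.

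**Figure D2:**
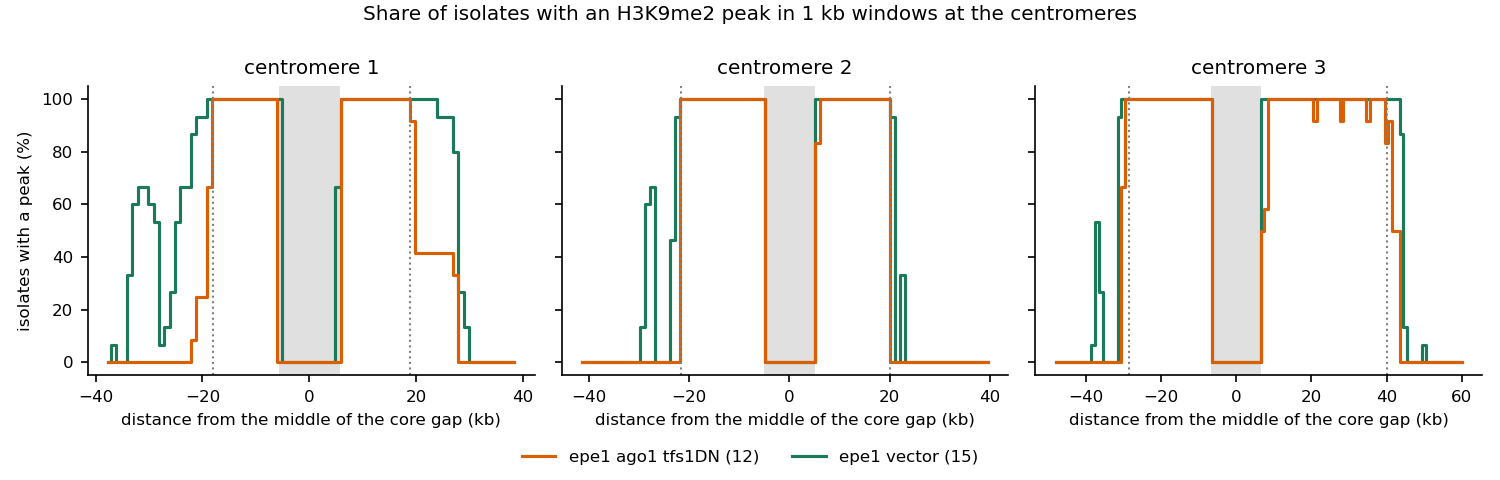
Share of isolates (%) with an H3K9me2 peak in windows of 1 kb against the distance (kb) from the middle of the core gap of centromeres 1, 2 and 3, for the 12 epe1 ago1 tfs1DN and 15 epe1 vector isolates. Both groups reach 100% over the repeats on either side of the core, and the flanks outside the dotted lines, which mark the ends of each centromere, are covered in more vector than ago1 isolates. The grey band is the core gap.

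Outside the repeats the ago1 isolates held less than the vector isolates. In the 10 kb flanks of the 3 centromeres, peaks covered 2.10 to 14.1 kb in the ago1 isolates (median 4.99) and 14.8 to 29.9 kb in the vector isolates (median 23.3), again with no overlap. The means were 6.87 ± 4.29 and 22.7 ± 5.18 kb (permutation test, adjusted p = 1.5e-05), so that the ago1 isolates held 30.3% of the flanking length. To the right of centromere 1, over emc5, rad50 (a double-strand break repair protein) and sdh1 (succinate dehydrogenase), a peak was listed in 5 of 12 ago1 isolates and 15 of 15 vector isolates. These 5 were 1 of 3 isolates in set 1, 0 of 5 in set 2 and 4 of 4 in set 3. To the left, per1 had a peak in 3 of 12 ago1 and 14 of 15 vector isolates, and rpl1002 in 0 and 2. In the left flank of centromere 2, rpb1, which encodes the largest subunit of RNA polymerase II, had a peak in 0 of 12 ago1 and 11 of 15 vector isolates. The difference in the flanks kept its call at a common limit on whole peaks, which could not make the limits in the flanks equal. A peak that ran from the repeats into a flank was kept or left out by its mean over both parts. With only peaks above 61.0% of centromeric coverage, the highest limit of any of these lists, the flanks held 5.57 ± 4.78 against 20.4 ± 4.07 kb (permutation test, adjusted p = 3e-05). When peaks overlapping those of an input were dropped whole, the difference in the flanks was 0.050 kb (permutation test, adjusted p = 0.962). As at the centromeres, the inputs differed and this did not filter the groups alike.

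At the mating-type region the ago1 isolates held 30.9% of the mean length of the vector isolates. Peaks covered 0.949 to 5.61 kb (median 2.06) in the ago1 isolates and 8.88 to 9.47 kb (median 9.30) in the vector isolates, with no overlap. The means were 2.85 ± 1.84 and 9.23 ± 0.19 kb (permutation test, adjusted p = 2.8e-05). The parents of sets 1, 2 and 3 held 2.13, 0 and 0 kb. The peaks lay at both mating-type cassettes of the reference, mat1-Mc and mat3-Mc, which share an identical stretch of 1323 bases 18.4 kb apart, so that reads from one cannot be told from the other. On the mat1 side the ago1 isolates held 0.283 to 0.807 kb and the vector isolates 1.42 to 1.54 kb. On the mat3 side they held 0.666 to 4.8 kb, as 1 to 5 pieces between the B box matches, against a single peak with 7.47 to 7.92 kb inside the region in every vector isolate. In all 15 vector isolates that peak crossed both copies of the B box match printed above, starting 5 to 280 bases to the left of the left match. In all 12 ago1 isolates no peak crossed either match, and the first base on the mat3 side lay 382 to 2922 bases to the right of the left match. The mat2 cassette and the K region were not analysed here.

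The listed length at the mating-type region stood close to the limit. The mat1 and mat3 pieces of the ago1 isolates had folds of 3.03 to 4.18 over chromosome coverage. They stood at 1.05 to 1.27 times the limit of their own list on the mat1 side and at 1.08 to 1.18 times on the mat3 side, and the vector peaks stood at 2.04 times theirs or more. Over the whole region the log2 coverage relative to the centromeres was -1.18 ± 0.79 in the ago1 and -3.21 ± 0.27 in the vector isolates, and in 4 ago1 isolates (3, 6, 8 and 11) the value includes the start of the block to the right described next. With limits this unequal, nothing is read from that difference. At 10% of centromeric coverage the region held 2.85 against 6.32 kb (permutation test, adjusted p = 0.0271). At the highest limit it held a mean of 0.310 kb in the ago1 isolates, in 4 of 12, and 0 kb in the vector isolates. The vector peaks on both sides stood at 15.6% of centromeric coverage or less, so that 0 kb was fixed in advance. The ago1 value can include the start of the block to the right, and nothing is read from this difference.

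**Figure D3:**
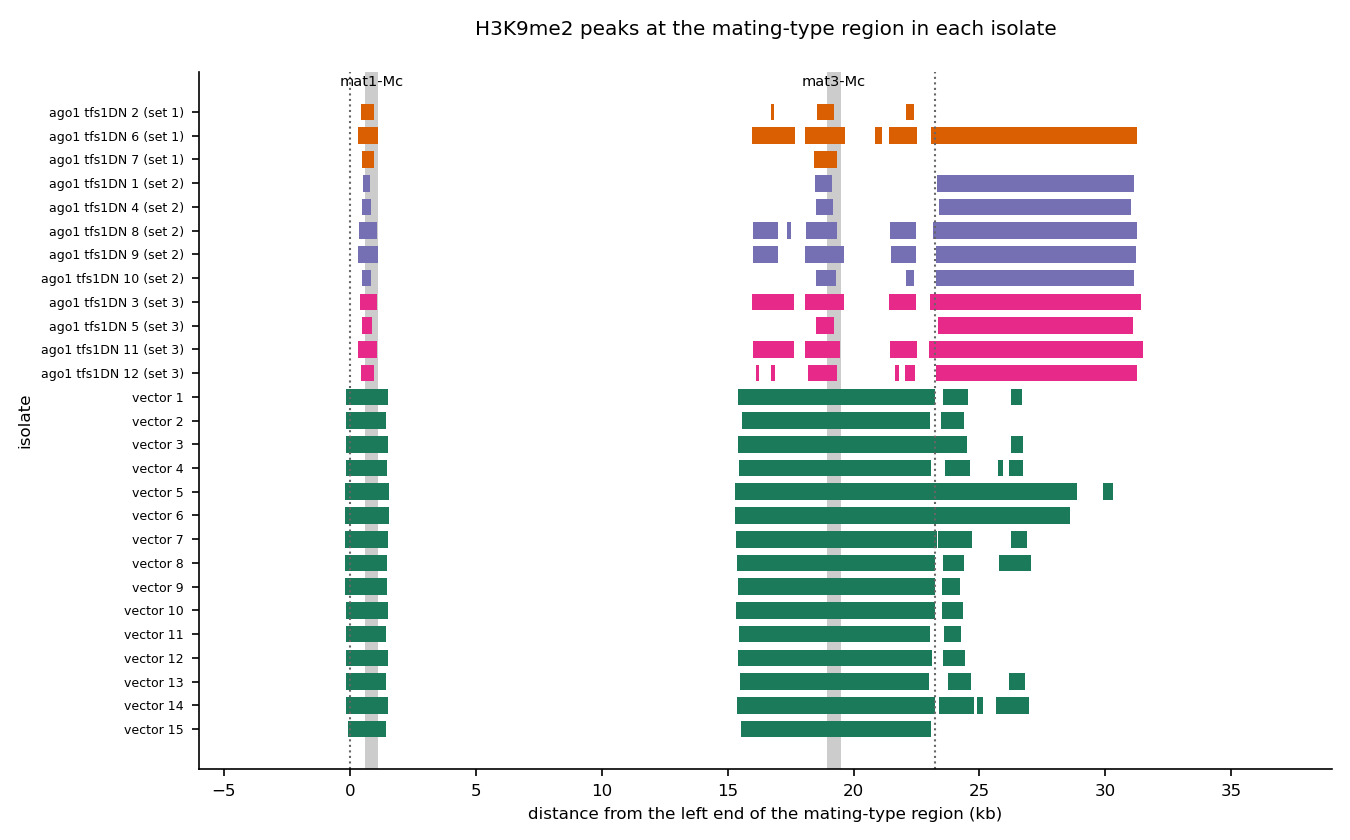
H3K9me2 peaks at the mating-type region, 1 row per isolate, against the distance (kb) from the left end of the region, with dotted lines at both ends of the region and grey bands at the cassettes mat1-Mc and mat3-Mc. The vector isolates show 1 long peak over the mat3 side, and the ago1 isolates show short pieces there and, in 10 of 12, a block of 7.60 to 8.48 kb that begins near the right end of the region.

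To the right of the right B box, 10 of 12 ago1 isolates had a block that none of the vector isolates had in this form. It spanned 7.60 to 8.48 kb, began 52 to 453 bases to the right of the B box match (II, 2136900 to 2137301) and ended at 2144897 to 2145380, with folds of 5.63 to 7.69. It covered emc3, mtd1, srp40 and rpl401 in all 10 and tam9 in 8 of them, genes named here after their values were seen, of which rpl401 encodes a ribosomal protein. The 2 isolates without it, 2 and 7, both belonged to set 1, and all 9 isolates of sets 2 and 3 had it. Of the vector isolates, 14 of 15 had shorter coverage there, of at most 6.04 kb, in isolates 5 and 6 as an extension of the mat3 peak. In the 10 kb to the right of the region the means were 6.62 ± 3.10 and 1.93 ± 1.70 kb (permutation test, adjusted p = 0.00014). None of the 3 ago1 parents and none of the 4 inputs had a peak there, and the vector parent had 3.25 kb. The block was above the mat cassettes in coverage, and at the highest limit it remained in 8 of 12 ago1 isolates and in 0 vector isolates (5.32 against 0 kb). At 10% of centromeric coverage the vector isolates already held at most 0.082 kb there. Their 0 kb at the highest limit was therefore fixed in advance, and no test is given for it. Of the 25-base runs in the 8 kb to the right of the region, 5.86% occurred elsewhere in the genome, against 4.47% over all 3 chromosomes. In the flank to the left of the mating-type region the ago1 isolates held 0 kb and the vector isolates 0.083 to 0.191 kb.

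At both ends of chromosome II and the left end of I, peaks covered the outer part in both groups and less of the chromosome further in in the ago1 isolates. The right end of I had no peak in its outer part in either group. The 4 ends, taken as 100 kb each, held 102 to 162 kb in the ago1 isolates (median 118) and 107 to 202 kb in the vector isolates (median 165), and the groups overlapped. The means were 126 ± 20.3 and 164 ± 27.2 kb (permutation test, adjusted p = 0.00142). The difference was found at each end, with 60.2 against 77.4 kb at the left end of I (adjusted p = 0.0057), 1.30 against 3.36 kb at the right end of I (0.0168), 22.4 against 32.2 kb at the left end of II (0.00159) and 42.1 against 51.4 kb at the right end of II (7e-05), all by the permutation test. The genes tlh1 and tlh2, which encode RecQ-type helicases next to the telomeres, had a peak in all 27 isolates.

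The continuous block at or next to the end of the chromosome showed where the difference lay. At the left end of I it was 35.6 to 38.6 kb long in 9 of 12 ago1 isolates and 72.6 to 81.9 kb in isolates 5, 9 and 2, which belong to 3 different sets. In the vector isolates it was 78.5 to 90.8 kb in 9 of 15, 46.9 to 48.9 kb in 3 and 36.4 to 38.1 kb in 3, so that the groups overlapped. The means were 46.3 ± 18.2 and 68.1 ± 22.1 kb (permutation test, adjusted p = 0.0129). At the left end of II the block averaged 17.9 ± 3.81 against 25.1 ± 6.62 kb (adjusted p = 0.00561), and at the right end of II 42.3 ± 2.23 against 48.2 ± 5.13 kb (adjusted p = 9e-05). The bins that were lower at these ends included those over ght3, a hexose transporter gene with a peak in 1 of 12 ago1 and 11 of 15 vector isolates, over shu1 and str3, genes for heme and siderophore uptake (bin with a peak in 0 and 7 isolates), and over gal1 and gal10, genes of galactose metabolism (0 and 13 isolates in the bin they share with tgd1). The merged peaks were longer on average in the ago1 isolates, with 11.8 to 23.4 kb (mean 16.2) against 8.40 to 23.9 kb (mean 11.8; permutation test, adjusted p = 0.00799). The longest merged peak of an isolate there, in contrast, dropped by 19.7 kb from the vector to the ago1 isolates (permutation test, adjusted p = 0.0147).

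At the ends the sign of the difference in length depended on the limit, which kept or left out whole peaks by their mean coverage. With only peaks above 61.0% of centromeric coverage, the ends held 112 ± 18.4 kb in the ago1 and 72.0 ± 40.1 kb in the vector isolates (permutation test, adjusted p = 0.00538). The bins that were then higher in the ago1 isolates were those at 55 to 75 kb from the left end of I (10 against 2 isolates), over the fluoride channel gene fex1 and the dihydroxyacetone kinase gene dak2, and the first 20 kb of the left end of II (10 against 1).

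**Figure D4:**
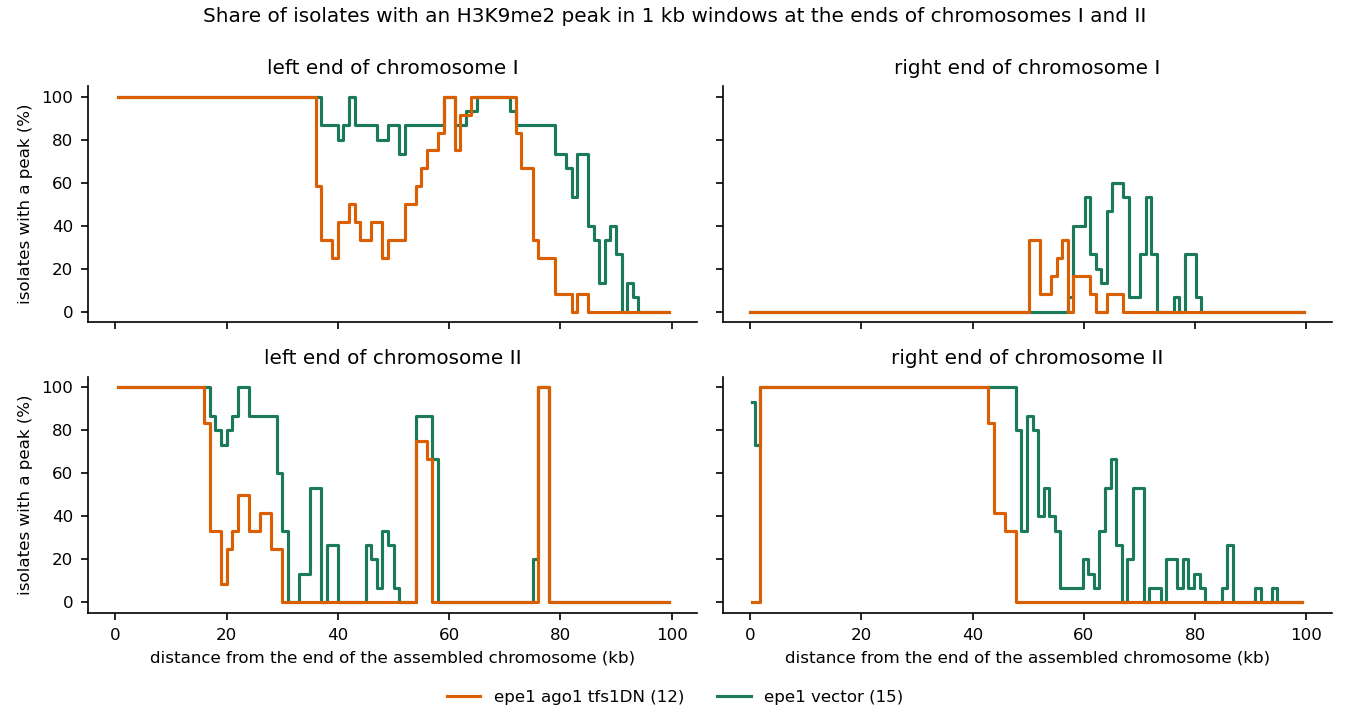
Share of isolates (%) with an H3K9me2 peak in windows of 1 kb against the distance (kb) from the end of the assembled chromosome, for both ends of chromosomes I and II, in the 12 epe1 ago1 tfs1DN and 15 epe1 vector isolates. Both lines stay at 100% over the outer part of the left ends and, apart from the outermost windows, of the right end of II, and the ago1 line falls from 100% closer to the chromosome end than the vector line; the right end of I has no peak in its outer part.

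The ends of chromosome III carry the ribosomal DNA repeats, and about the first 25 kb of the left end was listed without immunoprecipitation as well. The left end held 24.8 to 33.0 kb in the ago1 isolates, 25 to 34.3 kb in the vector isolates and 24.9 to 26.0 kb in the 4 inputs. The right end held no peak in any ago1 isolate and a mean of 2.04 ± 2.21 kb in the vector isolates, where 12 of 15 had one, of up to 6.86 kb. It held 0 kb in the 3 ago1 inputs and 0.815 kb in the vector input. Together the ends held 25.6 ± 2.34 against 29.8 ± 4.71 kb (permutation test, adjusted p = 0.00915). Isolate 2, at 33.0 kb, was the only ago1 isolate above 25 kb. The test lost its call under 6 of the alternatives, and beside the input values the difference there is given as a value of the lists only.

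At euchromatic sites, the peaks of all 27 isolates fell into 28 regions. Of these, 3 had a peak in every isolate, 13 were found in vector isolates only and 7 in ago1 isolates only, each of the 7 in a single isolate. An ago1 isolate had a peak in 5.92 regions on average and a vector isolate in 9.80. The share of isolates was lower in the ago1 isolates in 4 regions (14.3% of those tested) and higher in 0 (0%) by Fisher's exact test with Benjamini-Hochberg adjustment, where 3 further regions had an unadjusted p under 0.05. These were pil1 (0 against 6 isolates), gsf2 (12 against 10) and fil1 (7 against 15, adjusted p = 0.0549). The summed length was 21.0 ± 5.14 kb in the ago1 and 26.2 ± 9.20 kb in the vector isolates, a difference that did not pass the test (permutation test, adjusted p = 0.0914).

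The 4 lower regions comprised 1 meiotic island and 3 other sites. The island over ssm4, a meiotic gene, with its neighbours but1 and tpr1 (chrI:4533298-4540365), was listed in 2 of 12 ago1 isolates, 2 and 7 of set 1, and in 15 of 15 vector isolates (adjusted p = 7.3e-05). The region over prm1 and lys1, a gene of lysine biosynthesis (chrI:3737142-3743022), was listed in 0 of 12 and 11 of 15 (adjusted p = 0.00127), and lies next to the left flank of centromere 1. The region over mae2, a malate transporter gene (chrIII:276185-277195), and one at wtf21 and amt1 with no coding gene under it (chrIII:2067339-2068348), were listed in 0 of 12 and 15 of 15 each (adjusted p = 8.05e-07 for both). A count of 0 of 12 allows a share of isolates of up to 26.5% (upper bound of the exact Clopper-Pearson 95% interval). At 10% of centromeric coverage, which removed vector peaks only, none of the 4 was called any longer, and no vector isolate had a peak at ssm4.

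The mae2 and wtf21 sites, and the site at fil1 and gir2 (chrIII:814361-815412), were narrow, and parts of each occur elsewhere in the genome. In the vector isolates the mae2 peak was 0.432 to 1.01 kb wide and the fil1 peak 0.965 to 1.05 kb. Of the 25-base runs in them, 129 of 987 (13.1%) at mae2, 31 of 986 (3.14%) at wtf21 and 83 of 1028 (8.07%) at fil1 occurred elsewhere, against the 4.47% over all 3 chromosomes, so that wtf21 lay below that share. The longest shared runs of the mae2 and fil1 sites are shown, at chrIII:276658-276736 and chrIII:814835-814940 (plus strand), without capitals because the whole run is shared.
mae2 site: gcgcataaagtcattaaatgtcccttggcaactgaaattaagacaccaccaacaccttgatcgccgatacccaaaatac
fil1 site: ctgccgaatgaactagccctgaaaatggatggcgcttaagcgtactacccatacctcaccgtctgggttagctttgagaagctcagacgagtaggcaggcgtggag
The runs of the mae2 site had their other copies at the left end of chromosome I and the right end of chromosome II, and those of the fil1 site at both ends of chromosome III. The aligner placed a read with several matches at 1 of them, and the part of such placement in these peaks was not tested. Without regions that hold shared runs, ssm4 and prm1 with lys1 remained as the 2 lower regions. The fil1 site was also listed in 2 of 4 inputs.

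The islands over mcp7, num1 and mei4 were listed in all 27 isolates. The mcp7 island, over a gene for a meiotic recombination protein, spanned 2.68 to 3.27 kb in the ago1 isolates and 2.69 to 18.2 kb in the vector isolates. The means, 2.98 ± 0.20 and 5.05 ± 4.69 kb, did not differ beyond the spread (permutation test, adjusted p = 0.222). With medians in place of means the difference was -0.50 kb and passed (permutation test, adjusted p = 0.0255). The vector mean was raised by isolates 1 and 13, at 18.2 and 14.7 kb. No ago1 isolate exceeded 3.27 kb. The num1 island (num1, also called mcp5, anchors dynein in meiosis) spanned 2.36 to 9.32 kb in the ago1 and 2.21 to 14.8 kb in the vector isolates, with means of 5.97 ± 2.33 and 6.52 ± 4.21 kb (adjusted p = 0.685).

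The mei4 island had the larger mean length in the ago1 isolates, by a test that many alternatives did not pass. Mei4 is a forkhead transcription factor that drives the middle meiotic genes. Its peak spanned 2.48 to 4.73 kb in the ago1 isolates (median 4.15) and 2.11 to 7.68 kb in the vector isolates (median 2.37), and 14 of 15 vector isolates were at or under 3.27 kb. The means were 3.85 ± 0.75 and 2.76 ± 1.39 kb (permutation test, adjusted p = 0.0302), a call that was lost in 7 of 11 alternatives with differences of 0.73 to 1.21 kb. Among these were leaving out set 1 (permutation test, adjusted p = 0.127), set 2 (0.0652) or set 3 (0.0655), 1 value per set (0.336) and the isolate numbers as a replicate block (0.96 kb, adjusted p = 0.178). In the ago1 isolates the peak began at II 1470723 to 1471723, over cdk9, a kinase that promotes transcription elongation. In 12 of 15 vector isolates it began at 1472846 or later, near the start of mei4 (1473068 to 1475285). At the right, act1 was reached in 1 of 12 ago1 and 3 of 15 vector isolates.

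The remaining euchromatic regions were listed in few isolates or differed little. The gsf2 region (a flocculin gene), of which 93.2% of the 25-base runs occurred elsewhere, was listed in 12 ago1 and 10 vector isolates with folds of 3.63 to 4.02 and 3.04 to 3.39, and in 1 of 4 inputs. The region over rps1802 and erm1 was listed in 5 of 12 ago1 isolates, all 4 of set 3 and 1 of set 2, with up to 6.58 kb, and in 1 of 15 vector isolates with 0.073 kb (Fisher's exact test, adjusted p = 0.211). At 10% of centromeric coverage, 5 regions were higher in the ago1 isolates by Fisher's exact test. All ago1 peaks passed this limit, so it could remove vector peaks only and the shift in direction was fixed in advance. The counts are a description of the lists. These were mcp7 (12 against 7 isolates, adjusted p = 0.014), num1 (12 against 5, 0.00218), mei4 (12 against 3, 0.000329), gsf2 (12 against 0, 1.04e-06) and erm1 (5 against 0, 0.0353). No region was lower.

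Coverage relative to the centromeres was compared on unequal floors, since a listed peak cannot lie below 15.8 to 61.0% of centromeric coverage in the ago1 lists or 3.10 to 7.41% in the vector lists. It was computed at the 8 sites with a peak in all 27 isolates, as the percent of the mean coverage over the isolate's own centromeric peaks. At mcp7 it ran from 19.0 to 85.3% in the ago1 isolates (median 49.0) and from 3.83 to 15.2% in the vector isolates (median 9.64). At num1 it ran from 18.1 to 82.7% (median 55.3) against 4.03 to 17.9% (6.23), and at mei4 from 21.8 to 81.3% (46.3) against 5.90 to 12.7% (8.84). At the mat1 side of the mating-type region it ran from 17.0 to 65.3% (36.9) against 8.08 to 15.5% (10.8), and at the mat3 side from 17.1 to 70.2% (37.1) against 7.91 to 15.6% (10.7). The groups did not overlap at these 5 sites. At mcp7, mei4 and both sides of the mating-type region the highest vector value lay under the lowest ago1 limit, so that no overlap was possible there. At num1 the highest vector value was 17.9%, and the ago1 peaks stood at 1.06 to 1.88 times their limits. The values at these 5 sites are a description and carry no test.

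At the 3 chromosome ends the groups overlapped, and the ago1 median was above the centromeric level at 2 of them. It ran from 61.9 to 282% (median 149.1) against 38.8 to 98.1% (61.8) at the left end of I, from 42.4 to 158% (85.3) against 22.8 to 66.2% (42.7) at the left end of II, and from 70.8 to 260% (146) against 54.9 to 88.3% (64.0) at the right end of II. The ago1 values stood at 2.15 to 6.16 times the limit of their list there. The ago1 inputs had peaks at the ends of I and II as well (3.91 to 9.97 kb). Without peaks that overlapped an input peak, the left end of I and the right end of II gave no value. On the log2 scale the mean differences were 1.27, 1.08 and 1.17 in this order (permutation test, adjusted p = 2e-05 for each). Each value averaged the peaks that touched the outermost part of the chromosome over their full length. The groups were therefore averaged over different stretches, and the block at the left end of I had a mean length of 46.3 kb in the ago1 and 68.1 kb in the vector isolates. With only peaks above the highest limit of any list, the differences were 1.09 at the left end of I (permutation test, adjusted p = 0.000456) and 1.12 at the right end of II (4e-05), and the left end of II gave no value. These are ratios, and lower H3K9me2 at the centromeres cannot be told apart from higher H3K9me2 at the ends. With the chromosome coverage taken off every peak, the differences at the ends were 1.36, 1.10 and 1.26 (permutation test, highest adjusted p = 3e-05). In the vector lists that coverage was no plain mean, so that this is no check on background.

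**Figure D5:**
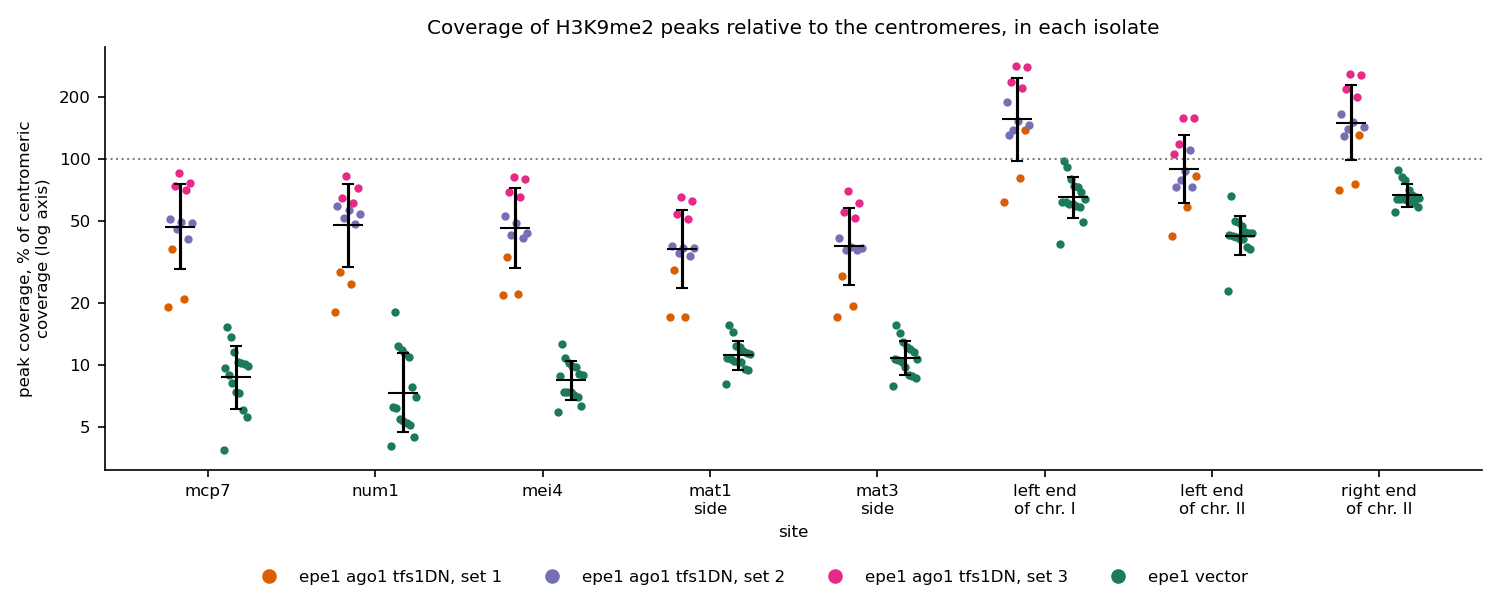
Coverage of H3K9me2 peaks as a percent of the isolate's own centromeric coverage (log axis) at the 8 sites with a peak in all 27 isolates; each point is 1 isolate, with the ago1 isolates coloured by set. The ago1 points lie above the vector points without overlap at mcp7, num1, mei4 and both sides of the mating-type region, where the limit of the ago1 lists (15.8 to 61.0%) is higher than that of the vector lists (3.10 to 7.41%), and set 1 lies lowest among the ago1 points. Horizontal bars and whiskers give the mean and SD of the log2 values, and the dotted line marks the centromeric level.

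The 3 sets of ago1 isolates were separated in this ratio, as they were in the limits of their lists, which is given as a description. At mcp7 the ratio was 19.0 to 36.5% in set 1, 41.0 to 51.2% in set 2 and 70.7 to 85.3% in set 3. The sets differed in the fold of the centromeric peaks over chromosome coverage (exact permutation test over 27720 assignments, p = 3.61e-05, adjusted p = 0.000397 over 11 values). This fold was 12.9 to 18.2 in set 1, 8.54 to 9.65 in set 2 and 4.85 to 6.72 in set 3. Their parents had folds of 17.7, 4.73 and 3.37. Centromeric coverage is the divisor of both the limit in percent and the mcp7 ratio. Their order, opposite to that of the centromeric fold, is therefore no separate observation. The fold at the ends of I and II, 10.5 to 16.4 over all 12 isolates, did not separate the sets (exact permutation test, adjusted p = 0.446). The smallest adjusted p among the other 10 values was 0.0586, for the flanks of the centromeres and the ends of chromosome III. Of 55 bins that varied among the 12 isolates, 9 had an unadjusted p under 0.05 by the exact test and 0 after adjustment.

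Against the 13 epe1 tfs1DN isolates, which have Argonaute, the same values fell in another order. Centromeric peaks covered 104.9 ± 4.08 kb without Argonaute and 80.6 ± 16.2 kb with it (permutation test, adjusted p = 0.00036 over 9 values). The mating-type region held 2.85 ± 1.84 against 1.02 ± 1.41 kb (adjusted p = 0.0238), and the flank to its right 6.62 ± 3.10 against 1.45 ± 1.80 kb (adjusted p = 0.00063). Euchromatic sites held 21.0 ± 5.14 against 101 ± 81.7 kb (adjusted p = 0.00138). Coverage relative to the centromeres did not pass the test at the mating-type region (log2 -1.18 and -1.01, the latter from the 12 of 13 isolates with a peak there, adjusted p = 0.565), the ends of I and II (0.34 and 0.0016, adjusted p = 0.131) or the euchromatic sites (-1.05 and -1.02, adjusted p = 0.92). The 3-fold limit of these isolates stood at 31.7 to 60.5% of centromeric coverage, within the range of the ago1 isolates and above that of every vector isolate. Its median was 43.1%, against 31.8% in the ago1 isolates. Their lists held 75 to 669 peaks, against 29 to 58, at a chromosome coverage of 3.28 to 14.6, against 12.7 to 36.6. An effect of Argonaute cannot be told apart from these differences between the lists.

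Of 10 meiotic genes silenced by RNA elimination, mei4, mcp7, num1 and ssm4 had a peak in at least 1 of the 27 isolates, and rec8, spo5, mug8, mug9, mcp6 and rec27 had none. Of 12 sites near heterochromatin 7 had a peak, with 5 under lower bins (mae2, rad50, lys1, prm1, rpb1), where 18.6% of all bins tested were lower, and pil1 and leu1 in vector isolates only (6 and 3 of 15). None of the 10 RNAi factors, 7 proteins of the Clr4 complex and HP1 family or 4 members of the deacetylase complex SHREC had a peak in any isolate. Of 8 hexose transporter genes ght3 and ght7 (0 of 12 and 4 of 15 isolates) lay under lower bins and ght6 had a peak in 1 ago1 isolate. Of 7 control genes, act1 alone had a peak. In all, 186 coding genes lay under a peak, 113 in at least 1 ago1 isolate, 158 in at least 1 vector isolate and 40 in all 27 isolates.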

How the data were processed

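H3K9me2 was measured by chromatin immunoprecipitation and sequencing. According to the labels and the methods of the study, the authors trimmed adaptors, dropped reads shorter than 20 nt and mapped what was left to ASM294v2 with Bowtie, placing a read with several best matches at 1 of them, and smoothed the alignments over 1 kb. SAMtools and bedtools are also named in the submitters' processing notes, without versions. The peak caller and its limit are not given in the sources used here. Each deposited list gave peak position and length (bp) and the signal, as read coverage averaged by the authors over the peak and over its chromosome, for 1 library, with no scaling between libraries and no correction for input. The fold is the ratio of these 2 deposited coverages. Total read counts are unknown, and chromosome coverage is the only depth.

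Bins, regions and kb were computed from the lists. Constitutive heterochromatin was the outermost 100 kb of both arms of I and II, the outermost 50 kb of III, the mating-type region and the centromeres, and flanks as 10 kb beside these, where kb in flanks covers only the centromeres and the mating-type region. Euchromatic regions were the union of peaks elsewhere, merged where less than 1 kb apart. Isolate counts were tested by Fisher's exact test for each feature that any isolate had a peak in, at an overlap of at least 1 bp. Values per isolate were tested by a permutation test of the difference of means (100000 resamples, two-sided), and set values by an exact one, all with Benjamini-Hochberg adjustment within each family (14 region values, 4 coverage ratios, 3 flanks, 3 terminal blocks, 12 edges, 4 islands) at 0.05. The tests were tested on simulated data. Sequences, genes and repeat runs came from RefSeq's ASM294v3. No peak ran past a chromosome end, and the last peaks ended 161 and 27 bases short of the ends of I and II. Genes were named under the 12 called euchromatic stretches with the largest difference in each direction (5 were called, all lower), and from fixed lists (meiotic genes, sites near heterochromatin, RNAi factors, Clr4 complex and HP1 proteins, SHREC, subtelomeric helicases, hexose transporters, controls). Members, lists and tests were chosen with earlier results of these data known. Of 4 helicase genes, tlh1 and tlh2 were found in the annotation. Isolate numbers pair nothing between groups. Python 3.11.15, pandas 2.3.3, NumPy 2.4.6, SciPy 1.17.1 and matplotlib 3.10.9 were used.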

Additional observations from a re-analysis of the deposited data

Results flagged for a closer look

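Within the ago1 sets of 4 or 5 isolates, 44 sets of values were checked for an isolate far from the rest, and 5 values stood out, where chance alone gives about 1 in 20. Isolate 5 of set 3 gave 4 of the 5. Its peaks covered 43.0 kb at centromere 3 (others of the set 52.6 to 54.0 kb), 92.8 kb at the centromeres together (105.1 to 107.4 kb) and 45.2 kb at the right end of chromosome II (40.5 to 40.8 kb), and its centromeric peaks averaged 9.66 kb in length (18.4 to 19.9 kb). Isolate 8 of set 2 had a log2 coverage of -0.69 at the mating-type region relative to the centromeres (others -1.47 to -1.32). Its block to the right began inside the end of the region, and its values at the mat1 and mat3 sides alone were -1.40 and -1.47.

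The parent of set 2, which enters no test of the report, had 35.2 kb of peaks at the right end of chromosome I, where no ago1 isolate had more than 3.06 kb and no vector isolate more than 9.50 kb. The inputs had 0 kb there.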

How the results depend on the processing

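Of 211 alternative values for the main results, 146 kept direction and call, 15 lost the call, 3 gained it, 30 counts moved by more than 1.5 times and 17 turned direction. Of 293 for single sites and edges, 271 kept both. The smaller centromeric length held in every alternative that gave a value (-4.91 to -6.91 kb) but the one without input-overlapping peaks, and the higher coverage relative to the centromeres at the ends of I and II held in all that gave a value, with a log2 difference of 0.94 at the highest limit. At the mating-type region and the euchromatic sites no alternative with a value removed the unequal limits, and nothing is read from that ratio there. Values are ago1 minus vector isolates, and bins and regions are counts called.

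With 1 value per ago1 set, 0 bins were higher and 6 lower, 2 regions were lower, and the calls were lost for kb at the ends of III (-3.96) and for peak length at the ends of I and II (4.48 kb) and at euchromatic sites (0.96 kb). Bins of 10 kb gave 0 higher and 18 lower, and bins of 2 kb 4 higher and 56 lower. With ends of 50 kb, euchromatic kb differed by -10.7. An overlap of 50% of the feature gave 18 lower bins and 2 higher regions, and one of 0.5 kb 1 higher bin and 2 higher regions. Peaks of at least 1 kb gave 15 lower bins, 2 higher regions, -2.08 kb at the ends of III, and peak lengths of 2.23 kb at the ends of III, -0.38 kb at the ends of I and II, 0.018 kb at euchromatic sites and -0.52 kb at the mating-type region. Folds of at least the median gave 13 lower bins, 1 higher region, and peak lengths of 0.43, -2.01 and 0.78 kb at the ends of III, the ends of I and II and the euchromatic sites. The longest merged peak gave -1.80, -19.7 and -0.67 kb there, and unmerged peaks 0.73 kb at euchromatic sites. Medians gave 0.81 kb at num1, and equal weights a log2 coverage of 2.48 at the ends of III.

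At 10% of centromeric coverage, 10 bins were higher and 4 lower, 5 regions were higher and 0 lower, kb differed by -0.63 at the ends of III, 11.7 at euchromatic sites, 2.25 at num1 and 0.29 at ssm4, and peak length by -2.69, -11.8 and -0.93 kb at the ends of III, the ends of I and II and the euchromatic sites. At the highest limit of any list, chosen after seeing the data, 11 bins were higher and 4 lower, 0 regions were lower, kb differed by 40.4 at the ends of I and II, 7.16 at euchromatic sites, 0.31 at the mating-type region, 1.01 at mcp7 and 1.48 at num1, and peak length by -1.26 kb at the ends of III and -18.4 kb at the ends of I and II. Both settings leave out the weaker vector peaks by construction and keep the listed edges of the others.

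Without input-overlapping peaks, 28 bins were higher, and kb differed by 39.2 at the centromeres, -1.79 at the ends of III, 5.37 at the ends of I and II and 0.050 in the centromere flanks. The inputs differed, so that this setting did not filter the groups alike. Without regions that share 25-base runs, chosen after seeing the data, 2 regions were lower. Without set 2, 1 bin was higher and 19 lower, kb at the ends of III differed by -3.69 and euchromatic peak length by 0.82 kb. Without set 3, 1 bin was higher and 16 lower, kb differed by -3.85 at the ends of III and 0.13 at num1, and log2 coverage at the ends of III by -0.092. The causes were not tested. A further 28 values could not be computed, 16 of them without input-overlapping peaks.

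The isolate numbers shared by the groups gave no pairing. Over 12 pairs the correlation of same-numbered isolates had a median of -0.0257 (-0.131 to 0.162), and 0 correlated best with its own number. With the numbers as a replicate block, 0 bins were higher and 14 lower, and euchromatic kb differed by -6.80 (exact permutation test, adjusted p = 0.0435). Read depth was known only as chromosome coverage.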
